A study of Mus musculus with 6 samples.

Results

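The 4 Hox clusters of the mouse genome, HoxA to HoxD, hold the 38 Hox genes described here, and the peaks were chosen by position alone: every peak of 5 ChIP-seq lists that touches one of 4 windows of the mm9 build. The windows are chromosome 6 from 52090000 to 52275000 for HoxA (185 kb), chromosome 11 from 96040000 to 96245000 for HoxB (205 kb), chromosome 15 from 102740000 to 102880000 for HoxC (140 kb) and chromosome 2 from 74480000 to 74615000 for HoxD (135 kb). They contain 180 of the 76477 peaks in the lists. Of these, 26 are among the 25970 H3K27ac peaks of ES48, 42 among the 29652 H3K27ac peaks of ES49 and 112 among the 19560 H3K27me3 peaks of ES49. None of the 614 EWS-FLI1 peaks of ES48 or the 681 of ES49 lay in a window.

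ES48 and ES49 are cultured mouse lines of Ewing sarcoma that was induced by the fusion protein EWS-FLI1, both on the Balb/c background and both without any treatment. The fusion protein was precipitated with a FLAG antibody and H3K27ac with its own antibody in each line. H3K27me3 was mapped in ES49 and has no ES48 list here, and input DNA of ES49 is not analysed here. Every antibody and line is 1 library, so there is no replicate and no test, and each number below describes those libraries. The lists carry no read counts, so the depth is unknown, and the score of a peak is the peak caller's own, with a scale that is not stated and that levels off near 3100. Scores are therefore used within a list, and a place without a peak is a place where none was called. No expression was measured, so what the lines are could not be checked against marker genes.

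Hox genes encode homeodomain transcription factors that give cells their position along the body axis and the limb. Within a cluster they lie in the order in which they are used along the axis, from genes of the head end to genes of the tail end. Polycomb repressive complexes keep unused Hox genes silent and leave trimethylated lysine 27 on histone H3 (H3K27me3) over them, often in broad blanket domains. Acetylation of the same lysine (H3K27ac) marks active promoters and enhancers, and a single histone tail cannot carry both on that lysine.

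Genes are placed on the clusters by order alone, because no annotation of mm9 was used. In the RefSeq table of GRCm38.p6, HoxA has 10 members that run from Hoxa2 at the lower coordinates to Hoxa13 at the higher ones, with Skap2 and Evx1 as the next coding genes outside the members. The other clusters run the opposite way. HoxB has 10 members from Hoxb13 (lower) to Hoxb1 (higher), between Ttll6 and Skap1. HoxC has 9 members from Hoxc13 to Hoxc4, between Calcoco1 and Smug1, and HoxD has 9 members from Hoxd13 to Hoxd1, between Evx2 and Mtx2. The tail-end side, with the genes numbered 13, is thus the higher side of HoxA and the lower side of HoxB, HoxC and HoxD.

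The clusters also carry 6 miRNA loci, whose mature strands are given because they show which miRNA families the clusters share. The capitals mark the seed, bases 2 to 8 from the 5′ end, and the sequences are RefSeq's (GRCm38.p6).
mmu-miR-10a-5p (HoxB): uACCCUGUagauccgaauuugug
mmu-miR-10b-5p (HoxD): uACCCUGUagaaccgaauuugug
mmu-miR-196a-5p (HoxB and HoxC): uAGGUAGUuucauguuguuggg
mmu-miR-196b-5p (HoxA): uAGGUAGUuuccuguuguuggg
mmu-miR-615-3p (HoxC): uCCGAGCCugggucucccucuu
The miR-10 strands of HoxB and HoxD share the seed ACCCUGU. The miR-196 strands of HoxA, HoxB and HoxC, which come from 3 loci, share the seed AGGUAGU, and miR-196 is known to target Hox transcripts. The lists measure no RNA, and the miRNA loci were not placed on mm9.

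Promoters of 22 of the 38 members were in the RefSeq table, 24 promoters in all, each running from 250 bases before to 50 bases after a gene start. The promoter with the most CpG pairs is printed for each cluster, since dense CpG is a known feature of regions that Polycomb marks. The capitals are the CpG pairs. Hoxa13 and Hoxd13 act in the growing limb and hind body, and Hoxb4 and Hoxc4 nearer the head end.
Hoxa13 promoter (GRCm38.p6, chromosome 6, minus strand): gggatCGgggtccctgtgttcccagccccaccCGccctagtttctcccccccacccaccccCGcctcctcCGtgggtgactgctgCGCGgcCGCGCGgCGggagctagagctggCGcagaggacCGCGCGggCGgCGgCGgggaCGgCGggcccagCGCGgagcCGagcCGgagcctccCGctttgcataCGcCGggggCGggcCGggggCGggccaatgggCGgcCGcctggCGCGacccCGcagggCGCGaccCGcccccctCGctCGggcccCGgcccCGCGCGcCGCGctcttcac
Hoxb4 promoter (GRCm38.p6, chromosome 11, plus strand): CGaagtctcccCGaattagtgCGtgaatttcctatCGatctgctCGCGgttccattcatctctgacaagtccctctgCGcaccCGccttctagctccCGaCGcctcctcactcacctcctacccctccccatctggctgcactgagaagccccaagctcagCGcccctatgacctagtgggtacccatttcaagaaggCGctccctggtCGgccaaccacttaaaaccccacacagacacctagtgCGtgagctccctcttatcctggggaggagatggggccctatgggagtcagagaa
Hoxc4 promoter (GRCm38.p6, chromosome 15, plus strand): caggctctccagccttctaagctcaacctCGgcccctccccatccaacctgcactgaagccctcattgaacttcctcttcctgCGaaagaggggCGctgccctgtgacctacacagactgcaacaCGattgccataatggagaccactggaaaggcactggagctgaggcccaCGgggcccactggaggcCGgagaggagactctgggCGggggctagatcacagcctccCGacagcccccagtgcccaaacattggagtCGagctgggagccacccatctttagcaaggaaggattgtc
Hoxd13 promoter (GRCm38.p6, chromosome 2, plus strand): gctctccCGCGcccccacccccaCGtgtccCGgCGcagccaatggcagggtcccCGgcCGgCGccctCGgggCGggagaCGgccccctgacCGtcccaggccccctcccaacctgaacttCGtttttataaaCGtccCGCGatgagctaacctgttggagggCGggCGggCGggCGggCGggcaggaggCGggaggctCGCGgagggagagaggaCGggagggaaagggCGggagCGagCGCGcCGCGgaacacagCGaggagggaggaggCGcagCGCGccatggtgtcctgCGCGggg
The Hoxa13 promoter holds 45 CpG pairs, Hoxd13 37, Hoxb4 14 and Hoxc4 9. Hoxc4 is the single HoxC member with an entry in the table, so it was not picked over other HoxC genes. Hoxb4 was picked among the 3 HoxB members with an entry, whereas HoxA and HoxD had 9 each. The 4 counts therefore do not compare whole clusters. Over the 24 promoters the median was 14.5 CpG pairs (range 4 to 45), against 7.0 over all 32851 promoters of the table. Hoxa9, Hoxd4 and an alternative start of Hoxd11 had 4 each. The median GC content was 57.7% against 52.7% over the table.

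The marks divided the 4 clusters into 2 kinds. HoxA and HoxC had H3K27ac over 19.2% to 31.5% of the window in both lines, and HoxB and HoxD had H3K27me3 over most of the window in ES49. H3K27ac of ES48 covered 26.6% of the HoxA window and 31.5% of the HoxC window, but 1.05% of HoxB and 0.870% of HoxD. H3K27ac of ES49 covered 21.7% of HoxA and 19.2% of HoxC, and no ES49 H3K27ac peak was called in HoxB or HoxD. H3K27me3 of ES49 covered 77.2% of HoxB and 66.5% of HoxD, 21.1% of HoxA and 2.92% of HoxC. HoxA was the single cluster with more than 20% under each of the 3 histone lists.

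**Figure D1:**
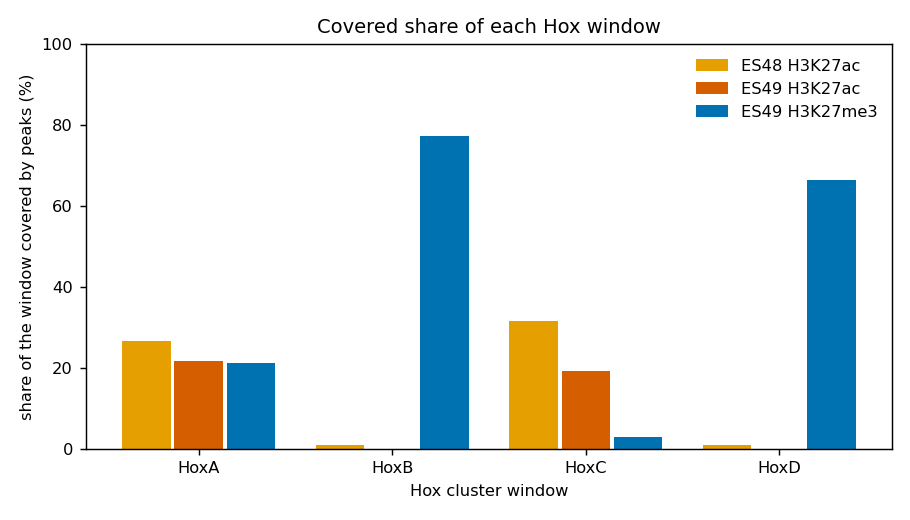
Percent of each Hox window (x axis) covered by peaks (y axis, %) for H3K27ac in ES48, H3K27ac in ES49 and H3K27me3 in ES49, 1 library each. HoxB and HoxD reach 77.2% and 66.5% under H3K27me3, HoxC has 31.5% and 19.2% under acetylation and 2.92% under H3K27me3, and HoxA has all 3 bars above 20%.

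These shares can be read against the chromosome each cluster lies on. H3K27me3 peaks covered 0.346% of chromosome 6, 2.31% of chromosome 11, 0.763% of chromosome 15 and 1.52% of chromosome 2, so the windows were 61.1 times (HoxA), 33.4 times (HoxB), 3.82 times (HoxC) and 43.7 times (HoxD) as covered as their chromosomes. For ES48 H3K27ac the ratio was 17.7 in HoxA and 14.3 in HoxC, and 0.270 in HoxB and 0.408 in HoxD, below the chromosome. For ES49 H3K27ac it was 19.5 in HoxA and 10.1 in HoxC. The windows make up 0.0258% of the span of the genome with peaks, and they hold 1.76% of all length under H3K27me3, 0.200% of that under ES48 H3K27ac and 0.187% of that under ES49 H3K27ac.

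**Figure D2:**
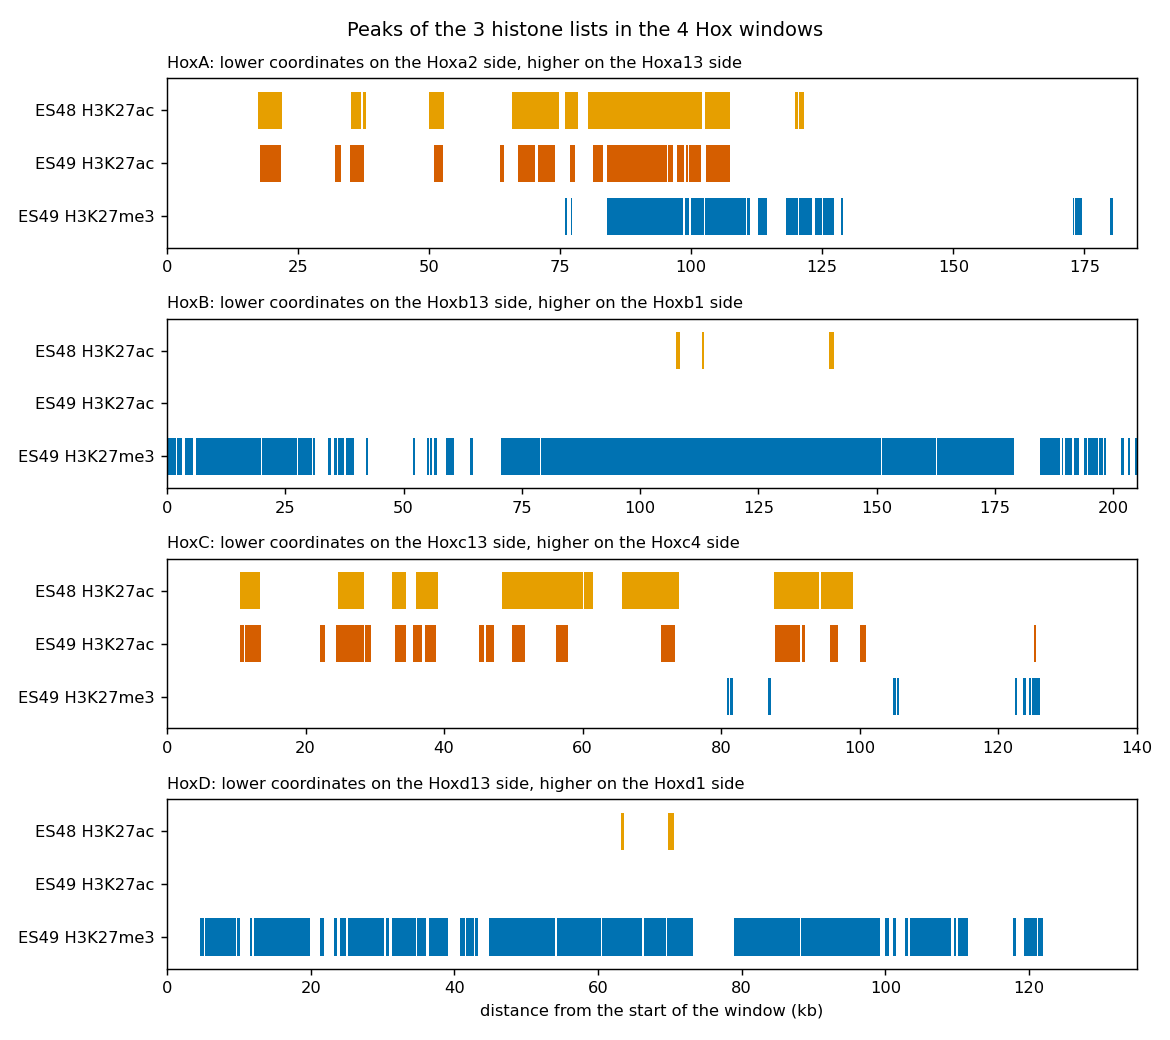
Positions of the peaks of the 3 histone lists in each window (x axis, kb from the start of the window; every block is 1 peak, thin gaps separate neighbours). H3K27me3 lies over most of HoxB and HoxD with gaps between, acetylation and H3K27me3 overlap in the middle of HoxA, and HoxC has blocks of acetylation with short H3K27me3 peaks on its Hoxc4 side.

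In HoxA, H3K27ac lay from the Hoxa2 side to the middle of the window, and H3K27me3 from the middle on towards the Hoxa13 side. Acetylation started at 52107395 in ES48 and at 52107695 in ES49, 300 bp apart. It was called in 11 peaks covering 49.2 kb in ES48 and in 20 peaks covering 40.1 kb in ES49. With peaks less than 5 kb apart joined into domains, the main acetylated domain ran from 52155877 to 52197406 in ES48 (41.5 kb, of which 37.8 kb were covered) and from 52153581 to 52197340 in ES49 (43.8 kb, 30.8 kb covered). Both lines thus stopped at nearly the same place. Joined at less than 1 kb, the domains began at 52170322 and 52171291 (27.1 and 26.1 kb) and ended at the same bases. By covered length the domains joined at 5 kb ranked 10 of 16846 in ES48 and 16 of 17355 in ES49.

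The widest acetylated peak of HoxA in ES48 reached from 52170322 to 52192043, 21722 bp, and ranked 5 by width in its list. It held 7 ES49 peaks, which covered 18.0 kb of it. The widest in ES49 reached from 52173978 to 52185352, 11375 bp, and ranked 16 in its list. Another 3 smaller acetylated places on the Hoxa2 side were common to both lines. In ES48 they were 52107395 to 52111941, 52125013 to 52127881 and 52140032 to 52142897, and in ES49 52107695 to 52111665, 52122137 to 52127554 and 52140862 to 52142705. On the Hoxa13 side the lines parted: ES48 had 2 more peaks, 52209718 to 52210362 (score 108.6) and 52210581 to 52211579 (score 211.5), so that the last acetylated base of ES49 lay at -14239 bp relative to that of ES48. Both of these low-scoring peaks fell within ES49 H3K27me3.

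H3K27me3 in HoxA came in 18 peaks covering 39.1 kb. Apart from a pair of short peaks between 52165992 and 52167320, with scores of 53.9 and 52.5, it began at 52173920 and continued as a domain to 52218946 (45.0 kb, 36.3 kb covered, rank 29 of 6430), or to 52201146 when peaks were joined at less than 1 kb (27.2 kb, rank 16). The peak at its start, 52173920 to 52187190, was 13271 bp wide (rank 16 in the list) and had a score of 3205.8, on the plateau of the scale. After 52218946 no H3K27me3 was called for 43.8 kb. It returned at 52262740 to 52264479 and at 52269886 to 52270453, the last marked base of the window. That empty stretch had no H3K27ac of either line.

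The start of H3K27me3 and a start of ES49 acetylation in HoxA lay 58 bp apart, at 52173920 and 52173978. From there to 52197340, the last acetylated base in ES49, both marks were called over most of the sequence. In that 23.4 kb stretch H3K27me3 covered 95.1%, ES49 H3K27ac 88.6% and ES48 H3K27ac 97.3%. On the Hoxa2 side of it, 83.9 kb, the shares were 0.713%, 23.1% and 29.4%. In the next 21.6 kb on the Hoxa13 side they were 64.8%, 0% and 7.91%, and in the last 56.1 kb they were 3.90%, 0% and 0%. The window thus read, from its lower to its higher end, as acetylated, marked by both, trimethylated and nearly free of peaks. These borders were placed after the peaks had been seen and describe them. Genes were not placed on mm9, so which stretch holds Hoxa13 or any other member was not determined.

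**Figure D3:**
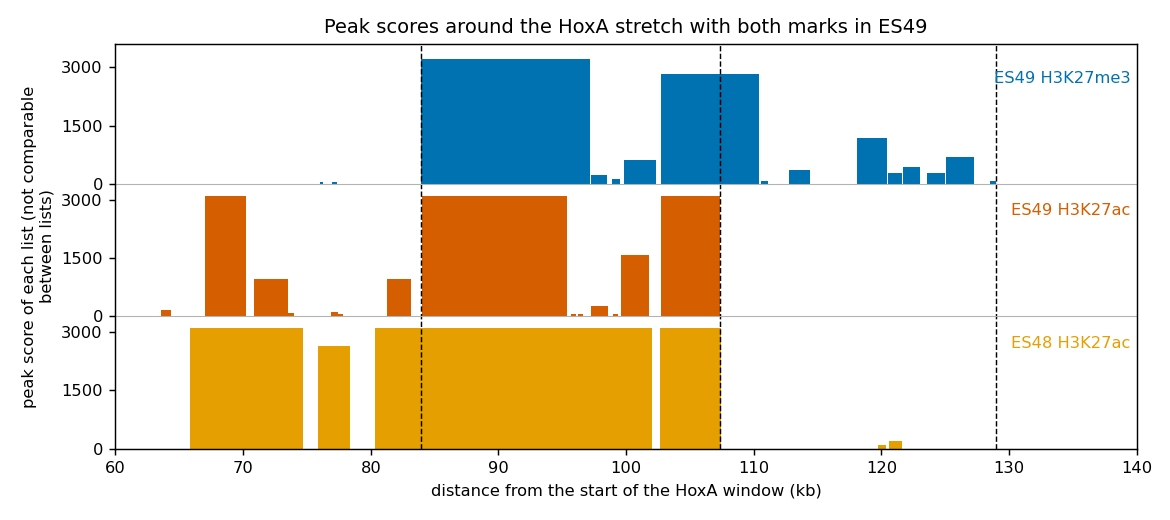
Peaks around the HoxA stretch with both marks (x axis, kb from the start of the window; bar width is the peak, bar height its score on the scale of its own list; dashed lines are the borders of the 4 stretches in the text). A wide H3K27me3 peak and a wide ES49 acetylated peak start at the left dashed line, acetylation stops at the middle line apart from 2 small ES48 peaks, and H3K27me3 continues to the right line.

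Both marks were called on 20.7 kb of HoxA in ES49, which is 11.2% of the window, with 19.4 kb under acetylation alone, 18.3 kb under H3K27me3 alone and 127 kb under neither. In the whole of ES49, 186 kb carried both calls, and HoxA supplied 11.1% of that length. The widest unbroken stretch with both marks in the ES49 lists was the 11375 bp acetylated peak of HoxA, followed by 5086 bp on chromosome 11 and by 4615 bp, which is the HoxA acetylated peak at 52192726 to 52197340. In counts of peaks, 8 of 20 HoxA acetylated peaks of ES49 overlapped H3K27me3 by at least 1 bp, and 9 of 42 over the 4 clusters (21.4%), where the share over the whole list was 0.890%. Of the 112 H3K27me3 peaks, 7 overlapped ES49 acetylation (6.25%, whole list 1.49%), and 6 of these were in HoxA.

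Some peak starts of the marks also fell close together in HoxA. Of its 8 overlapping pairs of an ES49 acetylated peak with an H3K27me3 peak, 4 had starts no more than 100 bp apart. Their acetylated starts lay 58, 25, 56 and 14 bp after the trimethylated ones, at 52173978, 52187272, 52188935 and 52192726. The ends were mostly further apart: in the same order, the acetylated ends lay at -1838, 75, -171 and -3047 bp relative to the trimethylated ends. In the whole lists 79 of 325 such pairs (24.3%) had starts that close. The scores of both marks were high together at the outer pairs, 3100.0 for acetylation with 3205.8 for H3K27me3 at 52173978, and 3100.0 with 2818.9 at 52192726. Both marks on 1 nucleosome and each mark on other cells or alleles cannot be told apart in these lists. The close starts were also not compared with the input DNA of ES49, which is not analysed here.

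HoxC was acetylated in both lines and had little H3K27me3. In ES48 10 peaks covered 44.1 kb and in ES49 22 peaks covered 26.9 kb. Acetylation started at 102750530 in ES48 and at 102750526 in ES49, 4 bp apart, on the Hoxc13 side. It stopped at 102839049 in ES48. In ES49 it stopped at 102840934, apart from a last weak peak, 102865085 to 102865474 with a score of 50.8, which lay 24.1 kb further on and put the last base 26425 bp beyond that of ES48.

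The acetylated domains of HoxC covered more in ES48 than in ES49 from the middle of the cluster towards Hoxc4. In ES48 the domain with most cover was 102788408 to 102813884 (25.5 kb, 21.1 kb covered, rank 91 of 16846), and its first peak, 102788408 to 102800006, was 11599 bp wide. In ES49 that peak's span held 3 peaks covering 3.73 kb, and the ES48 peak at 102805659 to 102813884 (8226 bp) met 1 ES49 peak of 2.04 kb. In ES49 the domain with most cover lay nearer Hoxc13, at 102762146 to 102778893 (16.7 kb, 9.99 kb covered, rank 301 of 17355). The spans of these 2 domains were 13 kb in ES48 and 5.08 kb in ES49 when joined at less than 1 kb, and 63.4 and 47.3 kb at 2.5 times the 5 kb. ES48 was acetylated there as well, from 102764745 to 102779159, with 9.05 kb covered. The highest ES48 score of the cluster, 3186.4, belonged to 102764745 to 102768457, and the matching ES49 peak, 102764433 to 102768403, was the widest of ES49 in HoxC (3971 bp, score 3100.0).

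Another acetylated block of HoxC lay towards Hoxc4, from 102827553 to 102839049 in ES48 (11.1 kb covered) and from 102827777 to 102840934 in ES49 (6.15 kb covered). A small block at the Hoxc13 end, 102750530 to 102753386 in ES48 and 102750526 to 102753508 in ES49, was nearly the same in both. With the window cut into 10 equal parts from its lower end, ES48 and ES49 acetylation covered 20.4% and 19.8% of part 1 and 41.4% and 41.3% of part 3. In part 2 ES49 was higher, at 23.3% and 30.1%. In parts 4 to 7 ES48 was higher: 54.2% and 27% of part 4, 68.4% and 12.4% of part 5, 27.7% and 14.6% of part 6, and 72.8% and 37.7% of part 7. Part 8 was at 6.84% and 6.22%.

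By length, 73.8% of the HoxA sequence acetylated in either line was acetylated in both, and 43.4% of that of HoxC, where the figure over the whole lists was 50.9%. Acetylated length in ES48 was 1.23 times that in ES49 in HoxA, 1.64 times in HoxC and 1.35 times over the lists. In counts of peaks, 17 of 26 ES48 peaks of the clusters met ES49 acetylation (65.4%, whole list 66.6%), with 9 of 11 in HoxA and 8 of 10 in HoxC. Of the ES49 peaks, 31 of 42 met ES48 acetylation (73.8%, whole list 68.6%), with 17 of 20 in HoxA and 14 of 22 in HoxC. The counts over all clusters are near those of the whole lists.

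H3K27me3 in HoxC was limited to 9 short peaks covering 4.08 kb, all on the Hoxc4 side, from 102820840 to 102865968. Their scores ran from 51.5 to 243.7. The widest and highest, 102864854 to 102865968 (1115 bp), closed the cluster, and the weak last acetylated peak of ES49 lay inside it, so that 0.390 kb of HoxC had both marks. The best H3K27me3 domain, 102862438 to 102865968, spanned 3.53 kb and ranked 2016 of 6430. No ES48 acetylated peak of HoxC met H3K27me3.

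HoxB held the top-ranked H3K27me3 domain of the ES49 list. Its 46 peaks covered 158 kb of the window. The domain from 96110665 to 96219094 spanned 108 kb with 99.7% under peaks, and it ranked 1 of 6430 by covered length. The lead was small, since the domain at rank 2, outside the Hox windows, had 106 kb covered. The HoxB domain kept rank 1 at all 3 joining distances. Its edges were the same when joined at less than 1 kb, and at 2.5 times the 5 kb it took in its neighbours and spanned 264 kb. It consisted of 10 peaks that nearly touch, among them 96121389 to 96156690, at 35302 bp the widest peak of the list, and 96156710 to 96182755 (26046 bp). Of 10 equal parts of the window, parts 5 to 8 were each covered by at least 99.3%.

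HoxB had 3 more H3K27me3 domains. On the Hoxb13 side one ran from 96024108, before the window, to 96082489 (58.4 kb, 49.7 kb covered, rank 11), and between it and the main domain a sparse one ran from 96092102 to 96104699 (3.95 kb covered). On the Hoxb1 side the mark went on from 96224473 to 96245101 (20.6 kb, 12.4 kb covered, rank 212). The gaps between the 4 domains were 96082490 to 96092101 (9.61 kb), 96104700 to 96110664 (5.96 kb) and 96219095 to 96224472 (5.38 kb). Part 3 of the window, which contains the widest of these gaps, was the least covered of the 10, at 18.6%.

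In HoxB the mark was also called beyond both edges of the window, on the Hoxb1 side after a gap. The first peak, 96029381 to 96041972, crossed the lower edge. The last ended at 96245101, just past the higher edge. The next peak began 13.4 kb beyond that edge, a wider gap than any inside the window. In the 100 kb beyond, H3K27me3 covered 50.7% on the Hoxb13 side and 27.3% on the Hoxb1 side, and no H3K27ac of either line was called there. From 100 to 200 kb on the Hoxb13 side the state turned over, to 27.9% under ES48 and 27.7% under ES49 acetylation and no H3K27me3. On the Hoxb1 side H3K27me3 still covered 28.2% from 100 to 200 kb. The 100 kb around the other clusters were sparser: H3K27me3 covered at most 1.75% of any flank of HoxA, HoxC and HoxD, and on the higher side of HoxA none of the 3 lists had a peak.

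HoxD was trimethylated in ES49 from 74484650 to 74601971. Its 39 peaks covered 89.8 kb and formed 3 domains when joined at less than 5 kb. The joining distance sets their number and edges: the domain with most cover spanned 28.4 kb when peaks were joined at less than 1 kb, and 117 kb, a single domain, at 2.5 times the 5 kb. At 5 kb the one on the Hoxd13 side, 74484650 to 74553256, spanned 68.6 kb with 57.9 kb covered and ranked 7 of 6430. The middle one, 74558876 to 74591534, spanned 32.7 kb with 28.9 kb covered and ranked 40, and the last, 74597801 to 74601971, spanned 4.17 kb. Between them lay gaps of 5.62 kb, from 74553257 to 74558875, and 6.27 kb, from 74591535 to 74597800. The widest HoxD peak, 74568316 to 74579281 (10966 bp, score 3100.0), followed directly on the highest-scoring one, 74558876 to 74568111, whose score of 3188.7 was likewise on the plateau. Covered share was 98.5% in part 7 of 10 and 39.6% and 3.49% in parts 9 and 10, on the Hoxd1 side.

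**Figure D4:**
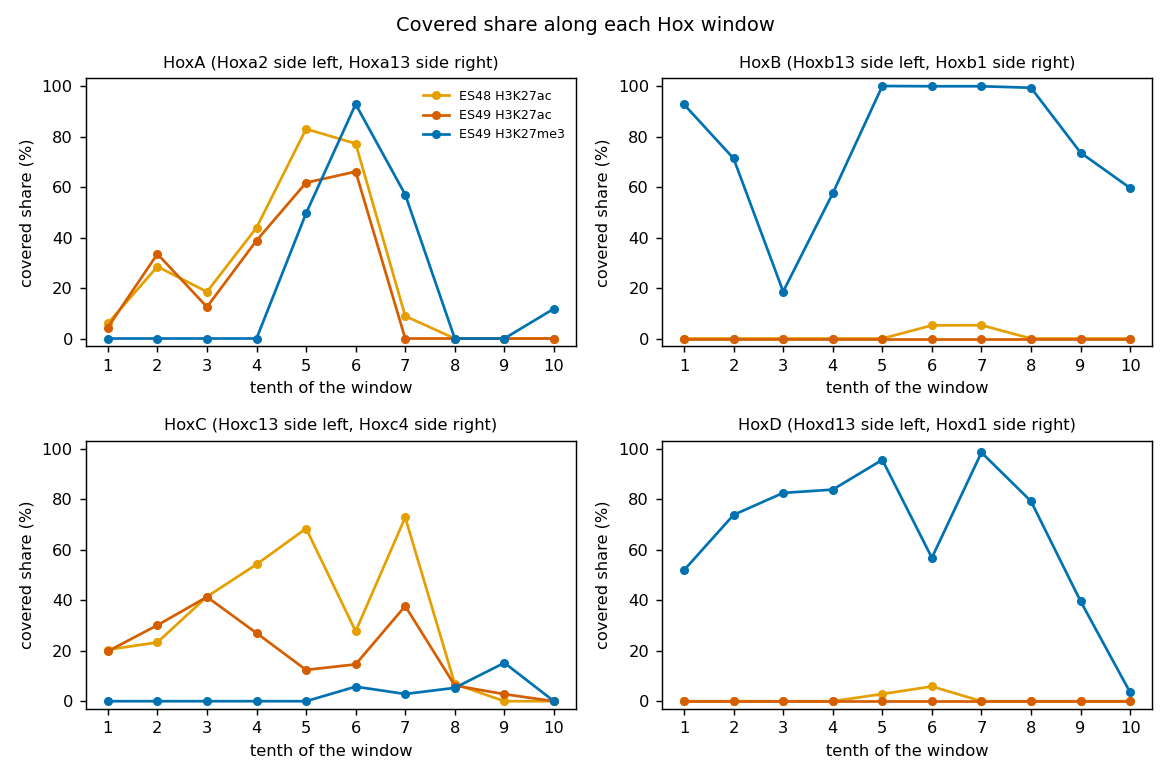
Percent covered (y axis) in each of 10 equal parts of each window (x axis, lower coordinates left) by the 3 histone lists, 1 library each. H3K27me3 of HoxB is at 99.3% or more in parts 5 to 8 and that of HoxD at 3.49% in part 10. HoxA has acetylation and H3K27me3 together in parts 5 and 6. In part 7 of HoxA acetylation falls to 8.89% in ES48 and 0% in ES49, with H3K27me3 at 57.0%. In HoxC ES48 is above ES49 in parts 4 to 7.

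The acetylation of HoxB and HoxD was confined in these lists to 5 low-scoring ES48 peaks. In HoxB they were 96147658 to 96148445 (788 bp, score 86.7), 96153146 to 96153421 (276 bp, score 50.5) and 96179927 to 96181007 (1081 bp, score 172.5). In HoxD they were 74543262 to 74543647 (386 bp, score 51.8) and 74549797 to 74550585 (789 bp, score 136.6). The median score of the ES48 H3K27ac list was 547.5, above all 5. All 5 lay where ES49 had H3K27me3, which covered 77.2% of the HoxB window and 66.5% of the HoxD window, so most places there would meet it. Over the 4 clusters 10 of 26 ES48 acetylated peaks met ES49 H3K27me3 (38.5%, whole list 1.74%), with 5 of 11 in HoxA and 0 of 10 in HoxC. In the upper 50% of both lists by score it was 2 of 15. Conversely 13 of 112 H3K27me3 peaks met ES48 acetylation (11.6%, whole list 2.90%). This comparison is across lines, and what H3K27me3 looked like in ES48 was not measured here.

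Peaks of the clusters were also high in their lists. A score of at least 3000 was reached by 15 of 112 H3K27me3 peaks (13.4%, whole list 1.25%), by 11 of 26 ES48 acetylated peaks (42.3%, whole list 20.1%) and by 5 of 42 ES49 acetylated peaks (11.9%, whole list 6.31%). The median width was 2277 bp for the ES48 acetylated peaks of the clusters against 1475 bp over the list, 825.5 against 838 bp in ES49, and 787.5 against 500 bp for H3K27me3. The clusters differed in this: of the 11 ES48 peaks, 5 were in HoxA and 6 in HoxC. No H3K27me3 peak of HoxC reached 3000, and the median score of those peaks was 62.3, against 90.0 over the list. Neighbouring peaks of a cluster are not independent of each other, so these counts describe few loci. Among the 50 H3K27me3 domains with most covered length, 5 were Hox domains, 2 in HoxB, 2 in HoxD and 1 in HoxA.

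**Figure D5:**
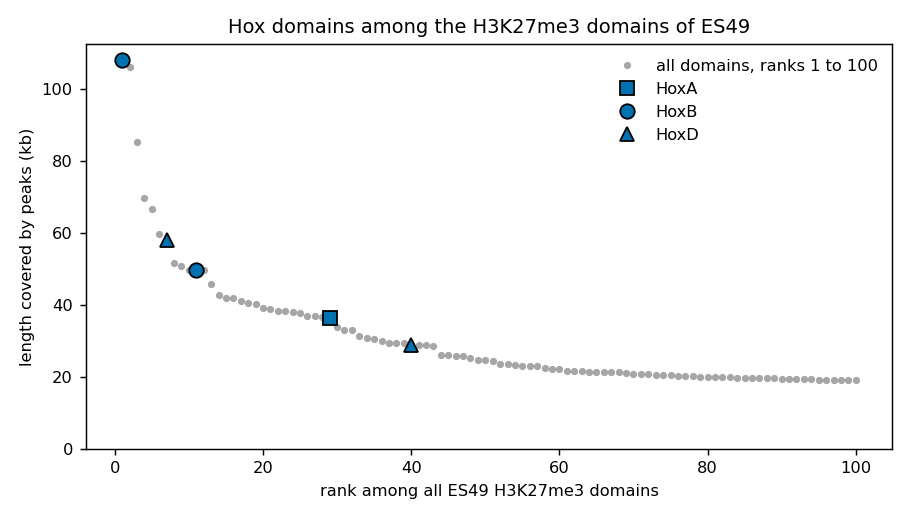
Length covered by peaks (y axis, kb) against rank (x axis) for the 100 ES49 H3K27me3 domains with most covered length; large symbols are Hox domains. HoxB holds ranks 1 and 11, HoxD ranks 7 and 40 and HoxA rank 29, and HoxC has none among the 100.

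EWS-FLI1 was not called in any of the 4 clusters, which make up 0.0258% of the span of the genome with peaks. At that share 614 or 681 evenly spread peaks would put fewer than 1 in the windows, so the count of 0 is near the background and is not a result about Hox genes. The nearest ES48 peak was 47.5 kb below the HoxB window, at 95992412 to 95992515 on chromosome 11, with a score of 59.3, within ES49 H3K27me3. For HoxA the nearest was 253 kb away, at 51837053 to 51837243 on chromosome 6 (score 53.2), and outside all 3 histone lists. For HoxC and HoxD in ES48 the nearest peaks were 2729 and 13911 kb away. In ES49 the nearest were 2903 kb from HoxA, 21003 kb from HoxB, 40879 kb from HoxC and 2683 kb from HoxD. Within 1 Mb there was thus 1 ES48 peak near HoxA, 2 near HoxB, and otherwise none in either line.

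The fusion's FLI1 part binds GGAA, most readily where it is repeated, so the promoters were searched for these letters on both strands. GGAAGGAA was found in 1 of the 24 Hox promoters (4.17%), that of Hoxa9, against 3.79% of all promoters of the table. The single GGAA, which every GGAAGGAA contains, was found in 22 of 24 (91.7%) against 96.0%. The shares in the Hox promoters are close to those of the table, and a match is a description of sequence and not a binding site.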

How the data were processed

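Each of the 5 peak lists was deposited by the authors with chromosome, start, end, peak name and a score per peak, 1 list per library. The submitters' processing notes name Bowtie 1.1.1, SAMtools 1.2 and the mm9 build. MACS stands in the peak names, per the files; its version, settings and control were not given in the sources used here. Peaks touching a window were taken, positions were written 1-based, and cover was the union of peaks clipped to the window. Peaks less than 5 kb apart were joined into domains, ranked by covered length. Peaks overlapped when they shared 1 bp. Places named are the first, last, widest and highest peaks, the domain edges, the places where marks or lines meet and the EWS-FLI1 peaks. The members, lists and rules were chosen with earlier results of these data known. The HoxA stretches, flanks beyond 100 kb, length overlaps, scores of at least 3000 and close starts were chosen after seeing the peaks. Interval code was tested on simulated data (200 runs, 0 failed). Python 3.11.15, numpy 2.4.6 and matplotlib 3.10.9 were used. Gene order, promoters and miRNAs came from RefSeq GRCm38.p6; 16 members had no promoter entry.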

Additional observations from a re-analysis of the deposited data

How the results depend on the processing

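Alternatives were the upper 50% of each list by score, windows trimmed by 10 kb or widened by 20 kb at each end, and joining at less than 1 kb, or at 2.5 times the 5 kb used. In that order of the first 3, the covered percent of HoxA was 25.2, 29.8 and 21.9 for ES48 H3K27ac, 19.4, 24.3 and 17.8 for ES49 H3K27ac, and 20.4, 23.3 and 17.4 for H3K27me3. HoxB gave 0, 1.16 and 0.876 for ES48 H3K27ac and 74.3, 78.4 and 71.7 for H3K27me3. HoxC gave 30.3, 36.8 and 24.5 for ES48 H3K27ac, 15.4, 22.4 and 14.9 for ES49 H3K27ac, and 1.5, 3.40 and 2.27 for H3K27me3. HoxD gave 0, 1.02 and 0.671 for ES48 H3K27ac and 63.2, 73.6 and 51.5 for H3K27me3. ES49 H3K27ac was at 0 in HoxB and HoxD throughout. Joined at 1 kb and at the wider distance, the domain with most cover spanned 27.1 and 55.7 kb (HoxA, ES48 H3K27ac), 26.1 and 56.5 kb (HoxA, ES49 H3K27ac), 27.2 and 53.0 kb (HoxA, H3K27me3), 13 and 63.4 kb (HoxC, ES48), 5.08 and 47.3 kb (HoxC, ES49), and 28.4 and 117 kb (HoxD, H3K27me3), and the HoxB domain 264 kb at the wider setting. With the upper 50% by score the spans were 26.1 kb (HoxA, ES49 H3K27ac), 43.3 kb (HoxA, H3K27me3), 11.6 kb (HoxC, ES48), 14.5 kb (HoxC, ES49) and 68.0 kb (HoxD). The HoxA domain ranked 16 at 1 kb and 46 at the wider distance, and the HoxD domain 12 at 1 kb. The stop of the main HoxA acetylated domain kept its position in ES49 in all 3, and moved in ES48 to 52211579 at the widest joining. With the upper 50% by score, 20 of 22 ES49 acetylated peaks met ES48 acetylation, 4 of 22 met H3K27me3 and 2 of 15 ES48 peaks met H3K27me3; the 5 ES48 peaks of HoxB and HoxD dropped out, so no span exists there. Within 100 kb of a window lay 1 ES48 EWS-FLI1 peak. Changes follow from the peaks that enter each setting. Asking for 50% of the shorter peak to overlap changed no count by over 1.5 times. Depth, scale of the score and the caller's settings are unknown, and with 1 library per group no spread between replicates can be given. No paired analysis was possible because each group is 1 library.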
